A study of Homo sapiens with 96 samples.

Results

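MIXL1-positive and MIXL1-low cells of 1 plate of human embryonic stem cells were compared across all other genes. The plate held 96 libraries, 1 single cell of HUES64 in each well as the labels describe it. HUES64 is an established embryonic stem cell line, and the cells used here carried an inducible DNMT1 knockout and were taken at day 0. The labels disagreed on doxycycline, which the description of each well gave as added and the induction field as not added. RNA was pulled down by its poly(A) tail and sequenced after SMART-seq2, which copies whole transcripts of a cell and here carried no molecular identifiers.

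A library was kept with at least 100000 gene reads, 2000 genes with a read, a mitochondrial share of at least 1% of gene reads and at least 50 CPM of GAPDH, a glycolytic enzyme. CPM gives a gene's reads per 1000000 reads on genes. Of the 96 libraries 72 were kept, and 24 were left out, 6 for few reads, 6 for the mitochondrial share and 12 for GAPDH. The 18 kept libraries with MIXL1 at 50 CPM or more are called positive, the 38 under 10 CPM low, and the 16 between them middle. The sets were chosen by the MIXL1 values themselves, which are therefore given only as a description. MIXL1 ranged from 58.8 CPM in well A6 to 323 CPM in well G11 among the positive libraries, with a median of 124 CPM and 19 to 248 reads. In the low libraries it had a median of 2.04 CPM and at most 9.03 CPM, and 10 of the 38 had no MIXL1 read. The libraries next to the thresholds were B3 at 9.03 CPM, F6 at 10.4 CPM, F5 at 48.97 CPM and A6 at 58.8 CPM. In 4 low libraries 3 reads already exceeded 10 CPM, and 1 library that was left out, C4, had MIXL1 at 50 CPM or more.

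The labels name no second culture, and the wells therefore count as cells of 1 sample. No test was made and no p-value is given, and each SD describes the spread over wells of this plate only. A gene entered the comparison with a mean of at least 10 CPM over the 56 positive and low libraries and a read in at least 20% of them. It was called higher in the positive libraries when the ratio of the mean levels, with 1 CPM added to each, was at least 2, and again at least 2 after the single highest library of each set was left out. It was called lower when both ratios were at most 0.5.

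MIXL1 is a paired-type homeodomain factor of the primitive streak, the stage of the embryo at which epiblast cells start to form mesoderm and endoderm. In embryos and in differentiating stem cells, NODAL and WNT signals switch on the T-box genes T (also called TBXT or brachyury) and EOMES, and MIXL1 along with them. NODAL acts through receptor kinases, SMAD2 and SMAD3 and their partner FOXH1, while WNT ligands act through beta-catenin and TCF/LEF factors. The streak genes are usually held low in stem cells that express POU5F1, NANOG and SOX2.

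**Figure D1:**
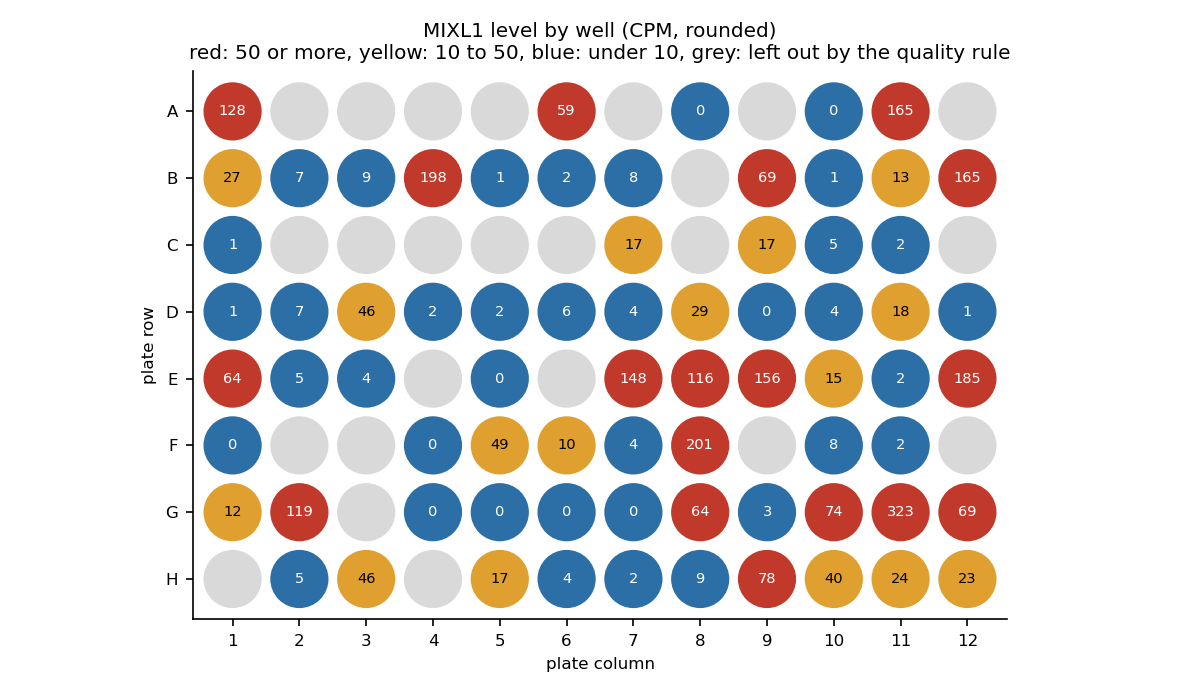
MIXL1 level in CPM by plate row and column, 1 circle per well; red circles are the 18 positive, yellow the 16 middle and blue the 38 low libraries, and grey circles are the 24 that were left out. The positive wells lie in rows A, B, E, F, G and H, and no well of rows C and D is among them.

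The promoters of MIXL1 and of 4 genes that the comparison below turns on are shown, since NODAL and WNT signals are known to regulate MIXL1. They are RefSeq sequences, written 5′ to 3′ on the strand of the gene, of GRCh38.p14, from 250 bases before to 50 bases after the start that RefSeq gives: MIXL1 at chr1:226223414-226223713 on the plus strand, EOMES at chr3:27722274-27722573 on the minus strand, NODAL at chr10:70441632-70441931 on the minus strand, WNT3 at chr17:46818643-46818942 on the minus strand, CER1 at chr9:14722684-14722983 on the minus strand. Capitals mark matches to AATCCACA (FOXH1), CAGAC (SMAD), CTTTGAT (TCF/LEF) or GGTGTGA (T-box), searched on both strands.
MIXL1: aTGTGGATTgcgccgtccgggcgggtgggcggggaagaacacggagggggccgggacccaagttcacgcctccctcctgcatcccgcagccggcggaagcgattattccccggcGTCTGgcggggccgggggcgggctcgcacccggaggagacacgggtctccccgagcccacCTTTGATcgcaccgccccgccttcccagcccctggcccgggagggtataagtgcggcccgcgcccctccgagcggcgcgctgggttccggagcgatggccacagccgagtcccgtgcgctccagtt
EOMES: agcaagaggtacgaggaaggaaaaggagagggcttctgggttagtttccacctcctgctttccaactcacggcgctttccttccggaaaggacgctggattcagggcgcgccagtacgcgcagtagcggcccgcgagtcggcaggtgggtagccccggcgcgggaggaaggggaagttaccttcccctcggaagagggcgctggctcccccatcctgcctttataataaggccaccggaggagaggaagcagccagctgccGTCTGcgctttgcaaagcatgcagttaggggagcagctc
NODAL: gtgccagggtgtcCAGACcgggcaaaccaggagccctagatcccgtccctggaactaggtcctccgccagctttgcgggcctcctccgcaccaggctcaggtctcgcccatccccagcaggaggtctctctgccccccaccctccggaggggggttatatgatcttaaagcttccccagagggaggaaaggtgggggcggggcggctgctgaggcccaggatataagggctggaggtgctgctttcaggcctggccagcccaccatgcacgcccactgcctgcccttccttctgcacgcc
WNT3: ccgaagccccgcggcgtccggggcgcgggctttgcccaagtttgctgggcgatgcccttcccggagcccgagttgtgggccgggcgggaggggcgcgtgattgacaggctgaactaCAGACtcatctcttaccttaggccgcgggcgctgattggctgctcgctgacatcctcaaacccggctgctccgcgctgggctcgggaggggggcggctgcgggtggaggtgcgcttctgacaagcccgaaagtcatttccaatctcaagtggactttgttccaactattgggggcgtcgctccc
CER1: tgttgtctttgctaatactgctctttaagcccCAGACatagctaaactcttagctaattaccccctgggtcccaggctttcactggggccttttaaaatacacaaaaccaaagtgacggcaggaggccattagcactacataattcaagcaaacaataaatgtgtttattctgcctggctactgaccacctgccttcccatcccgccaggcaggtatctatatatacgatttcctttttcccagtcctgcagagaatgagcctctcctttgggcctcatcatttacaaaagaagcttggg

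The MIXL1 window held 3 kinds of match. The FOXH1 letters, as TGTGGATT on the other strand, began at -249 from the start, the SMAD letters at -136 and the TCF/LEF letters at -76, and these matches did not overlap. The windows of EOMES, NODAL, WNT3 and CER1 each held 1 SMAD match and none of the other letters. Of 35116 promoters of this length, 0.817% held the FOXH1 letters, 45.3% the SMAD letters, 2.62% the TCF/LEF letters and 3.45% the T-box letters. A match describes letters only. In GENCODE 29, MIXL1 is a protein-coding gene on the plus strand of chromosome 1, from 226223618 to 226227054 (GRCh38). GENCODE 29 and RefSeq differ in the starts of all 5 genes, and the EOMES, NODAL and WNT3 windows lie within the genes as GENCODE 29 gives them.

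The other streak factors were looked at first. EOMES and T both had higher means in the positive libraries, while GSC and EVX1 were near 0 in most cells of either set. At 10 CPM or more, at least 1 of these 4 genes was found in 15 of 18 positive, 7 of 16 middle and 10 of 38 low libraries. T and EOMES were found together at that level in 8 positive, 2 middle and 0 low libraries. Counted singly, T reached it in 10 and EOMES in 13 of the 18 positive libraries. Whether their overlap exceeds these shares was not tested. In the positive set 3 libraries, A11, E8 and B9, held none of the 4. These and later shares are to be read against a gap over all genes that entered, of which the median gene reached 10 CPM in 66.7% of positive and 47.4% of low libraries; its part in the results was not tested.

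EOMES, the T-box factor that specifies endoderm and cardiac mesoderm, ranged from 0 to 303 CPM in the positive libraries, with a median of 76.6 CPM. In the low libraries it ranged from 0 to 395 CPM, with a median of 2.10 CPM. The sets overlapped, and the highest value of all lay in a low library, C11. The means were 91.4 ± 91.3 CPM (SD, n = 18) and 20.4 ± 67.4 CPM (SD, n = 38), a log2 ratio of 2.11, which was 3.03 without C11. EOMES reached 10 CPM in 13 of 18 positive libraries (72.2%, exact 95% binomial interval 46.5 to 90.3), in 5 of 16 middle and in 7 of 38 low libraries (18.4%, 7.74 to 34.3). Intervals on shares cover counting error only. The EOMES call was kept under all 21 other settings tried. Some of these settings can only keep a call, here and in later counts of settings. They are 0.1 CPM added, a mean of at least 1 CPM and no library left out. For higher genes, leaving out the highest 2 low libraries is another.

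T, the T-box factor needed for mesoderm and notochord, did not enter the comparison because its mean lay under 10 CPM. It ranged from 0 to 72.2 CPM in the positive libraries, with a median of 11.6 CPM, and from 0 to 19.4 CPM in the low ones, with a median of 0.753 CPM. The highest T value of the middle set, 90.9 CPM in D8, exceeded all of these. The means of 17.4 ± 19.6 CPM (SD, n = 18) and 2.52 ± 4.31 CPM (SD, n = 38) gave a log2 ratio of 2.38. At 10 CPM or more stood 10 of 18 positive (55.6%, 30.8 to 78.5), 3 of 16 middle and 3 of 38 low libraries (7.89%, 1.66 to 21.4). The direction depended on the quality rule, since the ratio was -0.05 when libraries with a low mitochondrial share or low GAPDH were let in. Of the 13 low libraries added there, E4 had 374 CPM of T (275 reads), 0 CPM of EOMES and 8.15 CPM of GAPDH.

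GSC, an organizer homeodomain factor, reached 10 CPM in 2 positive libraries, G11 with 65.2 CPM and E7 with 15.6 CPM, and in 1 low library, D5 with 17.5 CPM. Its highest value, 187 CPM, lay in the middle library D8, the one with the highest T. The GSC means of 4.95 and 1.45 CPM gave a log2 ratio of 1.28, which was -0.03 without G11. EVX1, a homeodomain factor of the posterior streak, had means of 0.695 and 0.589 CPM and reached 10 CPM in none of the 56 compared libraries. The 9 libraries on the plate with under 1% mitochondrial reads are left out here. Their pooled reads held 19.8 CPM of MIXL1 itself, a level of the middle set. T stood there at 9.91 CPM, EOMES at 1.98 CPM, NODAL at 12.9 CPM, WNT3 at 6.93 CPM and CER1 at 7.92 CPM. The part of such reads in the results was not tested.

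Of the 10 streak factors listed, 3 entered. EOMES was called higher. LHX1 had a log2 ratio of -0.41 and SP5, a WNT target, one of 0.22, which was 1.03 without the low library E5. The means of LHX1 were 29.2 and 39.1 CPM, against 408 CPM in the pool of the same 9 left-out libraries. The part of such reads in the LHX1 values was not tested. MESP1, MESP2, TBX6 and MSGN1 did not enter.

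**Figure D2:**
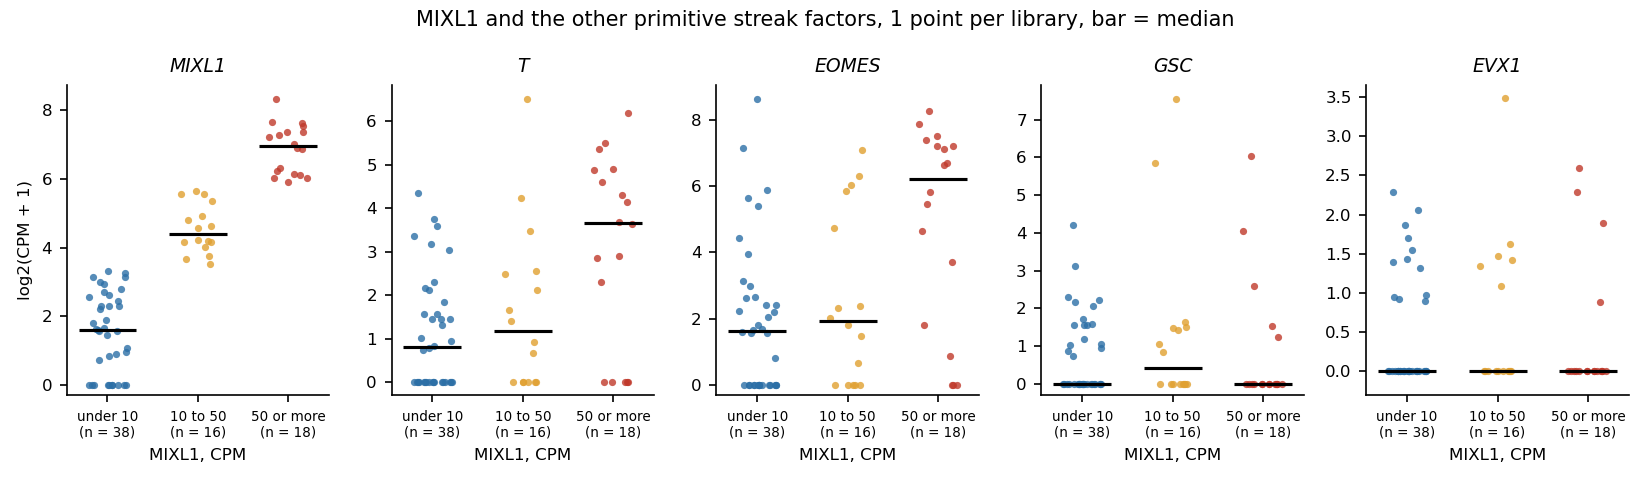
Level of MIXL1, T, EOMES, GSC and EVX1 on a log2(CPM + 1) scale, 1 point per library, in the 38 low, 16 middle and 18 positive libraries, with a bar at the median. EOMES reached 10 CPM in 13 positive and 7 low libraries and T in 10 and 3, while GSC and EVX1 stayed near 0 in most.

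Across the plate, 8952 genes entered. Of these 477 (5.33%) were called higher and 513 (5.73%) lower, and the median log2 ratio was -0.01. With TMM scaling factors the median moved to -0.11 and the calls to 381 higher and 634 lower. Counts of list members below are to be read against these shares. Some called genes had a mean under 10 CPM in 1 set and entered only through the other, which favoured their calls. Among them were CER1, FGF4, FRZB and IFIT2, through the positive set, and CXCR4, BAMBI and LPL, through the low set. The 21 lists held 188 genes that entered, of which 12 were called higher and 10 lower, shares close to those of all genes. Lists and members were chosen with earlier results of these data known.

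Genes of the NODAL pathway stood higher where they were called at all. Of 23 listed members 17 entered, 4 were called higher (NODAL, CER1, FST and TGFBR1) and 0 lower, with a median log2 ratio of 0.35. CER1 entered only through the positive libraries, since its mean in the low ones was 3.499 CPM. NODAL, the ligand itself, ranged from 0 to 193 CPM in the positive libraries, with a median of 98.2 CPM, and from 0 to 263 CPM in the low ones, with a median of 2.08 CPM. The sets overlapped, but G2 was the single positive library under 10 CPM. NODAL reached 10 CPM in 17 of 18 positive (94.4%, 72.7 to 99.9), 9 of 16 middle and 12 of 38 low libraries (31.6%, 17.5 to 48.6). The means were 102 ± 65.4 CPM (SD, n = 18) and 40.7 ± 74.2 CPM (SD, n = 38), a log2 ratio of 1.31. The ratio fell under the size rule in 3 of 21 other settings, at 0.91 with each library thinned to 100000 reads, 0.91 within rows F and G and 0.93 with MIXL1 at 20 CPM or more against under 5.

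CER1, a secreted antagonist of NODAL and BMP ligands, showed one of the largest ratios. It ranged from 0 to 645 CPM in the positive libraries, with a median of 2.31 CPM, and from 0 to 98.9 CPM in the low ones, with a median of 0 CPM. At 10 CPM or more stood 8 positive libraries (G11, F8, E12, A11, B12, E7, H9 and A6), 3 middle libraries and 1 low library, E2. The means of 79.1 ± 167 CPM (SD, n = 18) and 3.499 ± 15.98 CPM (SD, n = 38) gave a log2 ratio of 4.15, which was 3.38 without E7 and 5.38 without E2. The other 10 positive libraries held under 10 CPM, and the call was lost with reads thinned to 100000, although no setting gave a ratio under 1.73. After thinning CER1 had a read in 38.9% of positive and 7.89% of low libraries, too few to enter.

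The NODAL antagonists LEFTY1 and LEFTY2 are near-identical neighbours on chromosome 1, so their reads may be shared. LEFTY1 had means of 19.2 and 9.31 CPM, a log2 ratio of 0.97, not called, and 1.84 without the low library D2. LEFTY2 did not enter. It reached 10 CPM in 5 positive libraries, with up to 180 CPM in F8, and in 1 low library, C1, with 17.2 CPM. All 5 of those positive libraries, B12, E7, F8, G11 and H9, were among the 8 with CER1 at 10 CPM (62.5% of the 8), and all 5 also held EOMES at that level. Over the 18 positive libraries CER1 reached it in 8 and EOMES in 13. T reached it in 2 of the 5.

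FST, the activin-binding protein follistatin, ranged from 0 to 685 CPM in the positive libraries, with a median of 104 CPM, and from 0 to 198 CPM in the low ones, with a median of 16.3 CPM. Its means of 160 ± 178 CPM (SD, n = 18) and 43.7 ± 56.8 CPM (SD, n = 38) gave a log2 ratio of 1.85, and it missed the size rule, at 0.86, only when the quality rule was dropped. TGFBR1, a receptor kinase of the family, had means of 151 ± 117 CPM (SD, n = 18) and 64.8 ± 67.9 CPM (SD, n = 38), a log2 ratio of 1.20, and lost its call under 6 of 21 other settings. The co-receptor TDGF1 (0.29), the ligand GDF3 (0.70), SMAD2 (0.35), SMAD3 (0.02) and SMAD4 (-0.15) were not called. Other receptors that entered, ACVR2B (0.23), ACVR1C (-0.43) and ACVR2A (-0.82), were not called either. The receptor ACVR1B (-1.08) and SMAD7 (-1.31) did not enter. Of the 17 members that entered, 13 had ratios above 0. Against the 23 low libraries with GAPDH in the range of the positive ones, whose mean of GDF3 was 312.6 CPM, its ratio was 1.54 and passed the size rule.

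WNT genes went in both directions. Of 32 listed members 17 entered, 2 were called higher (WNT3 and FRZB) and 3 lower (LGR4, SFRP1 and FZD7), with a median log2 ratio of -0.13. WNT3, the ligand that starts the streak in mouse embryos, ranged from 0 to 606 CPM in the positive libraries, with a median of 116 CPM, and from 0 to 623 CPM in the low ones, with a median of 5.42 CPM. In the positive set 17 of 18 libraries reached 10 CPM, all but A6, against 10 of 16 middle and 17 of 38 low libraries. The means were 142 ± 132 CPM (SD, n = 18) and 59.03 ± 115 CPM (SD, n = 38), a log2 ratio of 1.26, which was 0.95, under the size rule, without the positive library E8. NODAL, WNT3 and EOMES all reached 10 CPM in 11 of 18 positive, 2 of 16 middle and 3 of 38 low libraries. Counted singly, NODAL and WNT3 each reached it in 17 and EOMES in 13 of the 18 positive libraries. Whether the overlap exceeds these shares was not tested.

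LGR4, a receptor for R-spondins that strengthens WNT signals, had a lower mean in the positive libraries, though it reached 10 CPM in 66.7% of positive and 65.8% of low libraries. It ranged there from 0 to 164 CPM, with a median of 19.8 CPM, and in the low libraries from 0 to 537 CPM, with a median of 54.7 CPM. The means were 37.4 ± 46.6 CPM (SD, n = 18) and 122 ± 150 CPM (SD, n = 38), a log2 ratio of -1.68, and the call was kept under all 21 other settings. The secreted WNT antagonist SFRP1 had means of 50.4 ± 84.2 CPM (SD, n = 18) and 138 ± 169 CPM (SD, n = 38), a log2 ratio of -1.43, but one of -0.21 within rows F and G. The receptor FZD7 had means of 64.01 and 141 CPM, a log2 ratio of -1.12, and its call was lost without the quality rule (-0.44) and by medians (-0.86). FZD7 reached 10 CPM in 15 of 18 positive and 32 of 38 low libraries, and SFRP1 in 11 and 34. FRZB, another secreted antagonist, was called higher at 1.94, which was 2.67 without the low library D9, but 5 positive and 2 low libraries reached 10 CPM, and 7 of 21 other settings ended the call. The WNT targets AXIN2 (0.08) and APCDD1 (0.03) and beta-catenin CTNNB1 (-0.04) were not called.

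**Figure D3:**
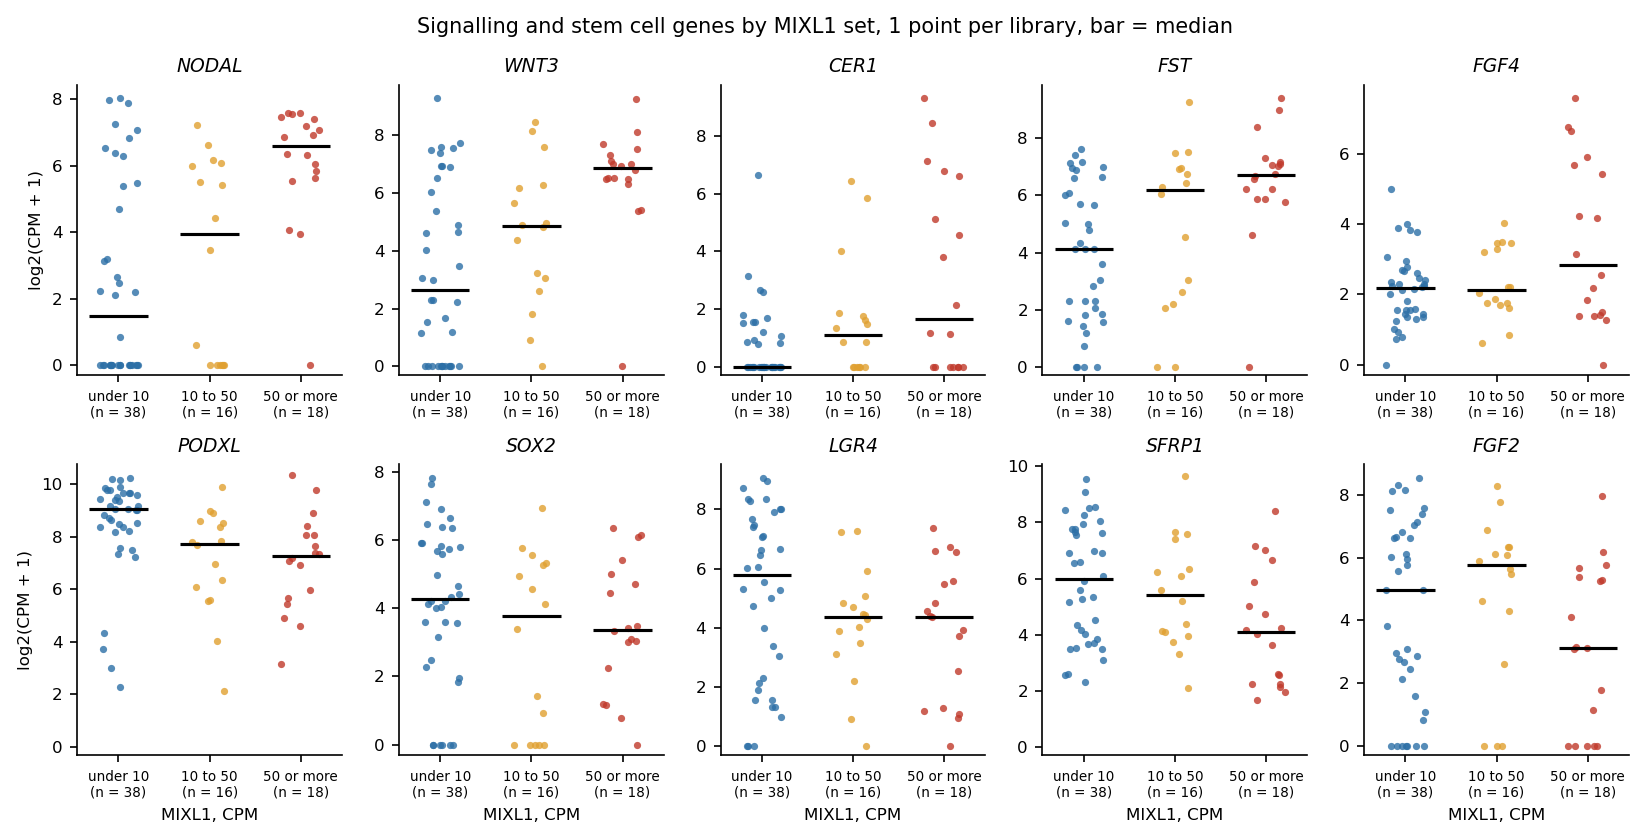
Level of 10 signalling and stem cell genes on a log2(CPM + 1) scale, 1 point per library, in the 38 low, 16 middle and 18 positive libraries, with a bar at the median. NODAL and WNT3 were under 10 CPM in 1 positive library each, CER1 was high in 8 of the 18, and LGR4 and PODXL had lower medians in the positive set.

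Of 19 FGF genes 14 entered, with FGF4 called higher, FGF2 lower and a median log2 ratio of 0.39. FGF4, a ligand made by stem cells, ranged from 0 to 193 CPM in the positive libraries, with a median of 6.33 CPM, and from 0 to 31.1 CPM in the low ones, with a median of 3.54 CPM. It reached 10 CPM in 8 of 18 positive, 4 of 16 middle and 5 of 38 low libraries. The means of 34 ± 52.2 CPM (SD, n = 18) and 4.91 ± 5.75 CPM (SD, n = 38) gave a log2 ratio of 2.57, and the call was lost in rows A to E and H. The medians alone gave 0.69, and the pool of the 9 libraries on the plate with under 1% mitochondrial reads held 34.7 CPM of FGF4, the level of the positive mean; its part in the result was not tested.

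FGF2, the growth factor of stem cell media that the cells also make, was lower, with means of 32.6 ± 59.2 CPM (SD, n = 18) and 76.1 ± 101 CPM (SD, n = 38). Its log2 ratio of -1.20 was -1.90 without the positive library B4, and the call was lost under 6 of 21 other settings. FGF8, a ligand of the streak, stood at 0.97 and was not called, and at 0.36 without E9. DUSP6 and SPRY2, targets and inhibitors of the pathway, had ratios of 0.52 and 0.74, and DUSP6 one of 0.24 without E9. The related SPRY1 stood at 0.08 and SPRY4 at -0.45. Of the 14 members that entered, 11 had ratios above 0. SPRY4 had means of 223 and 304 CPM, against 2172 CPM in the pool of the 9 libraries with under 1% mitochondrial reads. The part of such reads in the SPRY4 ratio was not tested.

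Of 18 BMP genes 9 entered, 0 were called higher and 1 lower, with a median log2 ratio of -0.43. The one called was BAMBI, a decoy receptor, at -1.31, which was -2.21 without the positive library G12 and -0.79, under the size rule, without the low library G7, and it was -0.05 against the 23 low libraries with GAPDH in the range of the positive ones. The ligand BMP4 stood at -0.93, but at -0.25 without the low library D4 and at -1.86 without the positive library G12. The targets ID1, ID2 and ID3 had ratios of 0.09, -0.85 and -0.43.

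Genes of the epithelial-mesenchymal transition, which cells undergo as they leave the streak, mostly did not pass the size rule. Of 16 listed 11 entered, 1 was called higher and 0 lower, with a median log2 ratio of -0.09. The one called was HAS2, a hyaluronan synthase, with means of 135 ± 183 CPM (SD, n = 18) and 62.02 ± 133 CPM (SD, n = 38). Its log2 ratio of 1.11 was 0.70 without the positive library E8, and the call was lost under 9 of 21 other settings. The adhesion genes CDH1 (-0.09), EPCAM (-0.22) and CDH2 (0.51) and the filament gene VIM (-0.52) were not called. SNAI1, a repressor of CDH1, did not enter, and reached 10 CPM in 4 positive libraries and 1 low library. FN1, which encodes fibronectin, had a ratio of -2.66 that rested on the low library D4, with 16350 CPM, and was 0.54 without it.

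Few markers of later fates were called. Of 15 mesoderm genes 2 entered, the receptor KDR at 0.18 and the factor TBX3 at -0.52, and neither was called. TBX3 reached 10 CPM in 16 of 18 positive and 37 of 38 low libraries. Its means were 26.6 and 38.6 CPM, against 280 CPM in the pool of the 9 libraries with under 1% mitochondrial reads. The part of such reads in the TBX3 shares was not tested. Of 12 definitive endoderm genes 5 entered, with CER1 called higher and the chemokine receptor CXCR4 lower. SOX17, the defining endoderm factor, had means of 0.421 and 0.646 CPM and reached 10 CPM in none of the 56 libraries. CXCR4 reached 10 CPM in 0 positive and 4 low libraries. Its log2 ratio of -3.84 was -2.46 without the low library D4, which had 426 CPM of CXCR4, 249 CPM of FOXA2 and no read of POU5F1 or NANOG, and the call was lost under 11 of 21 other settings. Of 12 neural genes 4 entered, of 14 trophoblast and amnion genes 1 entered and of 11 fibroblast genes 3 entered, and none of them was called. The neural factor PAX6 reached 10 CPM in 18 of 18 positive and 37 of 38 low libraries, with a log2 ratio of -0.29. Its means were 137 and 168 CPM, against 1044 CPM in the same 9 left-out wells. MAP2 stood there at 927 CPM, against means of 96.7 and 128.5 CPM. NES and TUBB3, which also entered, held 8.92 and 17.8 CPM in those wells. Their part in the PAX6 shares was not tested.

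Most pluripotency genes did not pass the size rule in either direction. Of 25 listed 20 entered, 0 were called higher and 2 lower (PODXL and MYCN), with a median log2 ratio of 0.15. POU5F1, the central factor of the stem cell network, ranged from 0 to 1050 CPM in the positive libraries, with a median of 610 CPM, and from 0 to 1186 CPM in the low ones, with a median of 402 CPM. It reached 10 CPM in 17 of 18 positive and 35 of 38 low libraries, and E9 was the positive library without a read of it. The means of 579 ± 248 CPM (SD, n = 18) and 430 ± 292 CPM (SD, n = 38) gave a log2 ratio of 0.43. These means differed by less than either SD, as also for NODAL and WNT3, which were called. NANOG had means of 83.1 ± 56.4 CPM (SD, n = 18) and 56.2 ± 50.7 CPM (SD, n = 38), a log2 ratio of 0.56. POU5F1 and NANOG have near-identical pseudogene copies, so reads on them may be split.

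SOX2, the third factor of that network and one also kept in neural cells, had a lower mean in the positive libraries without passing the size rule. It ranged from 0 to 80.7 CPM in the positive libraries, with a median of 9.37 CPM, and from 0 to 225 CPM in the low ones, with a median of 18.2 CPM. The means of 21.9 ± 25.9 CPM (SD, n = 18) and 43.1 ± 53.9 CPM (SD, n = 38) gave a log2 ratio of -0.95. It reached 10 CPM in 8 of 18 positive and 27 of 38 low libraries. SOX2 lies within SOX2-OT in the annotation, and NODAL, HAS2 and PODXL also overlap other genes; the counts did not separate the strands.

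PODXL, a sialomucin at the surface of stem cells, ranged from 7.80 to 1289 CPM in the positive libraries, with a median of 152 CPM, and from 3.89 to 1182 CPM in the low ones, with a median of 523 CPM. The sets overlapped over nearly their whole range. The means were 258 ± 331 CPM (SD, n = 18) and 531 ± 330 CPM (SD, n = 38), a log2 ratio of -1.04. This was -0.96 without the positive library E7 and -0.66 within rows A to E and H, and 6 of 21 other settings ended the call. MYCN, a MYC family factor, had means of 13.8 and 40.1 CPM, a log2 ratio of -1.47, but of 1.0 within rows F and G. It reached 10 CPM in 8 of 18 positive and 17 of 38 low libraries. PRDM14 stood at -0.97, while DPPA4 (0.13), L1TD1 (0.27), LIN28A (0.13) and DNMT3B (0.13) were near 0.

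Of 10 genes of the primed state, the one that human stem cells usually hold, 10 entered, and FGF2 alone was called. Of 11 naive state genes 1 entered, TFAP2C at 0.18, and was not called.

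**Figure D4:**
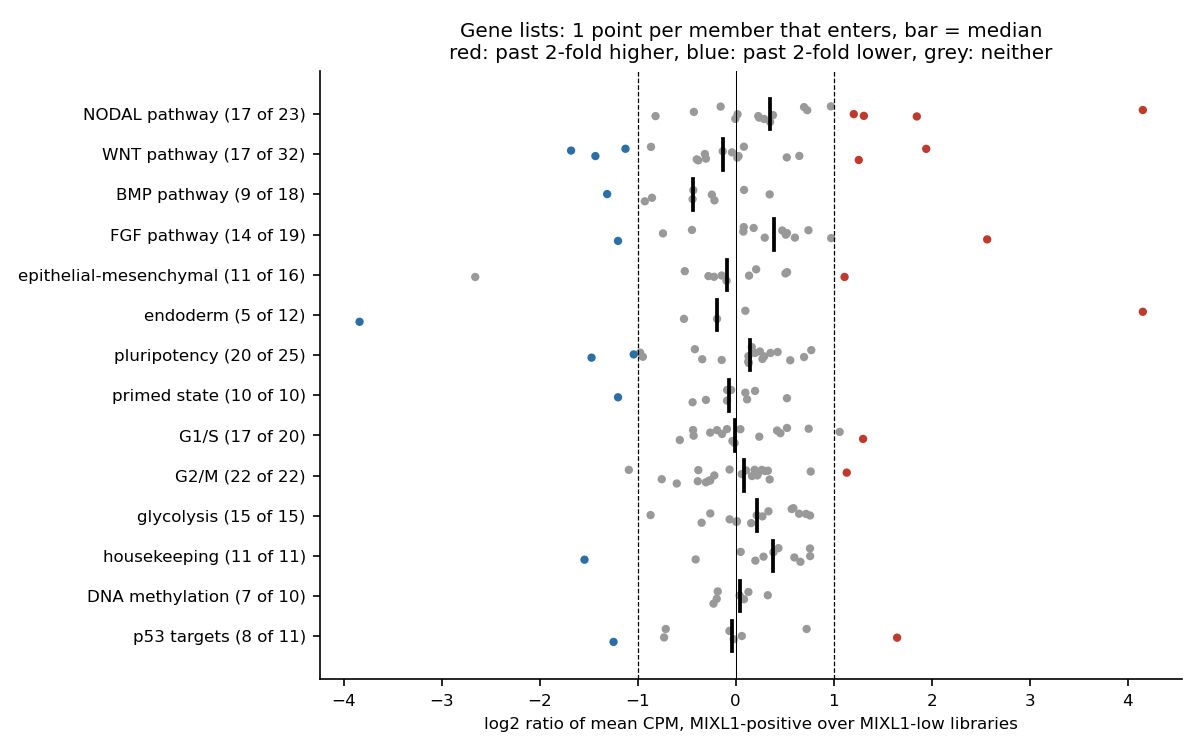
Log2 ratio of mean CPM, positive over low libraries, for each entering member of the 14 lists with at least 5, with a bar at the list's median and dashed lines at a 2-fold ratio. The NODAL list has 4 members called higher and 0 lower, the pluripotency list 0 and 2, and most other members lie between the dashed lines.

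Lists for other states of the cell held few called genes. Of 17 G1/S genes that entered MCM4, a subunit of the replicative helicase, was called higher at 1.30, with a list median of -0.01. Of 22 G2/M genes the kinase AURKB was called higher at 1.13, with a list median of 0.08, and CENPA stood at -1.09 and at -0.48 without the low library F1. None of 15 glycolysis genes was called, with a median of 0.21. Of 11 housekeeping genes the general transcription factor TBP was called lower at -1.54, while 9 of the 11 had ratios above 0, with a list median of 0.39. Of 8 p53 targets TP53I3 was called higher at 1.65, which was 0.66 without E9, and ZMAT3 lower at -1.25, which was -1.85 without E12. None of 7 DNA methylation genes was called, and DNMT1, the maintenance methyltransferase whose deletion can be induced in this line, had means of 38.4 ± 39.9 CPM (SD, n = 18) and 30.4 ± 47.2 CPM (SD, n = 38), a log2 ratio of 0.33. Of 11 immediate early genes 1 entered, FOS, and it was not called.

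Outside the lists, the highest ratio was that of IFIT2, an interferon-induced antiviral gene. It had 0.716 ± 1.51 CPM (SD, n = 38) in the low libraries, none above 6.47 CPM, and 53.8 ± 81.6 CPM (SD, n = 18) in the positive ones, with a log2 ratio of 4.998. The positive libraries split, since 8 of 18 held at least 10 CPM and the median was 3.35 CPM. Of these 8 libraries 6, or 75%, were among the 8 with CER1 at 10 CPM, again 75% of those. FGF4 and IFIT2 shared 4 of their 8 libraries each, and T stood in 4 of the 8 with CER1. EOMES stood in 7 of the 8 of CER1, FGF4 and IFIT2 each. Over all 18 positive libraries CER1 stood in 8, T in 10 and EOMES in 13. Whether the overlaps exceed these shares was not tested. The IFIT2 call was lost with thinned reads and within rows F and G, although no setting gave a ratio under 2.12. HERC3, a ubiquitin ligase of the HERC family, stood at 3.26 with 8 positive and 4 low libraries at 10 CPM, and was kept under all 21 other settings.

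Several of the 15 largest ratios rested on few libraries. TACR3, a neurokinin receptor, stood at 4.01, and at 3.11 without E9 and 4.83 without F11. SLC25A3P1, a pseudogene that may share reads with SLC25A3, stood at 3.46, at 2.63 without B12 and at -1.71 within rows F and G. IRAK4, a kinase of innate immune signalling, stood at 3.37, and at 1.64 without E8 and 4.10 without D10. OR52A1, an olfactory receptor, stood at 3.27 (4.45 without B7) and HIST1H2BK, whose reads may be shared with near-identical histone genes, at 3.24 (4.09 without D9). RP11-431J17.1 (3.67), AC007682.1 (3.29), ZNF347 (3.21) and CHMP4C (2.85) moved less when 1 library was left out, and their calls were lost under 7, 4, 2 and 3 of 21 other settings. ZNF585A (3.04, and 3.75 without B7), TOE1 (3.01, and 2.11 without E8) and RP11-488L18.4 (2.95, and 2.35 without G10) completed the 15.

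Among the lowest ratios, LPL, which encodes lipoprotein lipase, was seen in the most libraries. It reached 10 CPM in 12 of 38 low and 0 of 18 positive libraries, where its highest value was 3.91 CPM. The means of 24.6 ± 46.1 CPM (SD, n = 38) and 0.217 ± 0.920 CPM (SD, n = 18) gave a log2 ratio of -4.40, and the call was lost against the 10 low libraries with no MIXL1 read, within rows F and G and without rows C and D. SHISA2, of a family first described in the frog as restraining WNT and FGF receptors, had a lower ratio of -5.59, but -3.12 without D4, which alone had 2421 CPM. The other 13 genes reached 10 CPM in 3 to 9 low libraries. Without 1 low library, SLC25A20 moved from -4.22 to -2.76 (E5), ZNF879 from -4.04 to -2.38 (G5), TBC1D19 from -3.91 to -2.73 (D4), OXSM from -3.88 to -3.25 (A10), ZNF568 from -3.77 to -2.20 (B3) and GRAMD1C from -3.34 to -1.86 (D6). RP11-168O16.1 moved from -3.83 to -4.61 without A11, SLC1A1 from -3.32 to -2.58 without F10 and MURC from -3.21 to -2.54 without D2. HPSE (-3.57), CARF (-3.35) and BAG3 (-3.28) moved less when 1 library was left out. The calls of LPL and SLC1A1 were lost under 3 of 21 other settings, that of RP11-168O16.1 under 4 and that of SHISA2 under 5. Those of HPSE and ZNF568 were lost under 6, of SLC25A20 and MURC under 7, of OXSM, TBC1D19 and GRAMD1C under 8, of CARF under 9 and of BAG3 and ZNF879 under 11.

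Over all 72 kept libraries, the middle set included, Spearman's rho with MIXL1 was over 0.4 for 45 genes and under -0.4 for 3. These values describe cells that share a plate and differ in depth and quality, so no p-value goes with them. The highest was ABHD12B, a hydrolase-like gene, with 0.54. It had 130 ± 74.8 CPM (SD, n = 18) in the positive and 30.5 ± 67.02 CPM (SD, n = 38) in the low libraries and reached 10 CPM in 17 of 18 and 17 of 38. DCLK1, a microtubule-associated kinase, followed with 0.52 and means of 251 ± 201 CPM (SD, n = 18) and 85.2 ± 157 CPM (SD, n = 38). WNT3 stood at 0.49, PPP5C at 0.48, CDA at 0.47, CLASP2 at 0.47, MORC3 at 0.46 and KIAA1841 at 0.46, and RP11-431J17.1 and AC007682.1 at 0.51 and 0.47. EOMES had a rho of 0.32, NODAL 0.35 and CER1 0.32. LPL (-0.42), PODXL (-0.42) and KTN1 (-0.41) were lowest. The size rule called ABHD12B, DCLK1, CDA and KIAA1841 under all 21 other settings. They were picked by rho with MIXL1 over libraries that include both sets, which favours such calls.

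**Figure D5:**
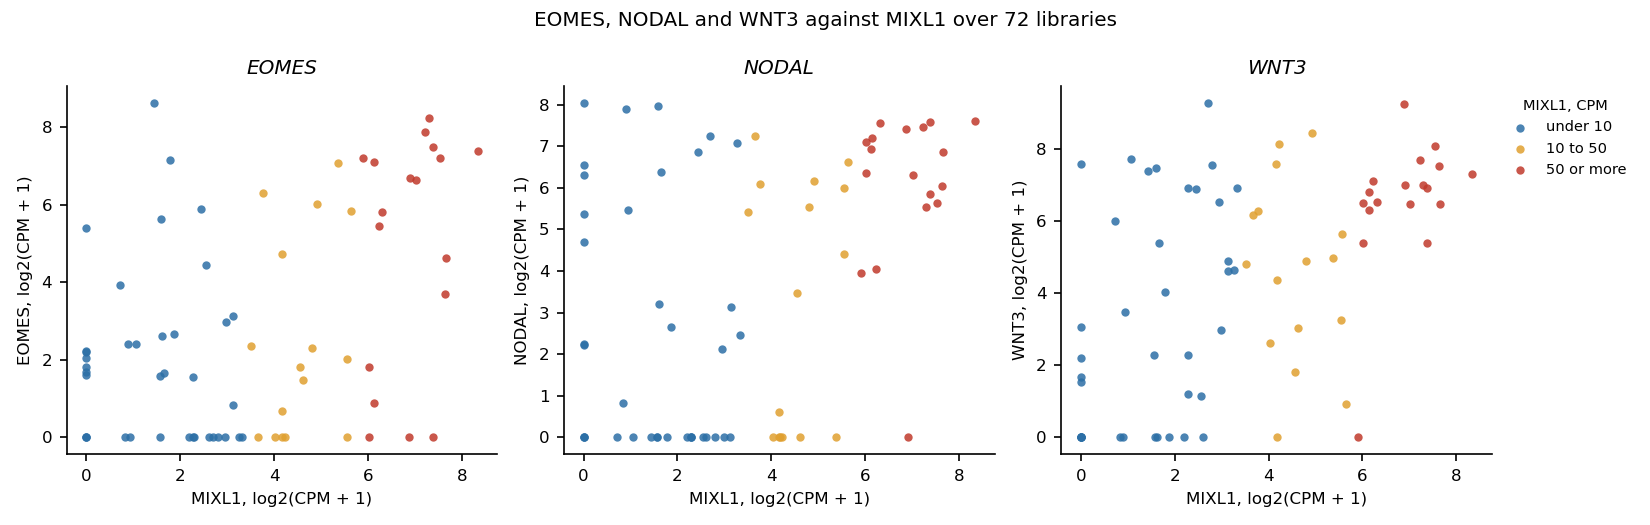
EOMES, NODAL and WNT3 against MIXL1, both axes log2(CPM + 1), 1 point per library over 72 libraries, coloured by MIXL1 set. Most positive libraries lie high on all 3 genes, with a rho of 0.32, 0.35 and 0.49, while low libraries spread over the whole vertical range.

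The sets differed in measures of the library as well. The median of gene reads was 799214 in the positive and 724183 in the low libraries, and that of genes with a read 14142 and 14174. The mitochondrial share was alike, with medians of 9.43% and 9.37%. MT-CO2 over MT-CO1, as a log2 ratio of reads, had medians of -2.04 and -1.47, and 5 abundant loci (FLG-AS1, DGCR14, KCNJ2, RP11-217O12.1 and PDE4A) took 1.19% and 2.03% of gene reads in the median library; their part in the results was not tested. GAPDH was higher in the positive libraries, with a median of 1601 CPM (574 to 2439) against 824 CPM (79.5 to 3844). Genes at 10 CPM or more numbered 6675 and 5866 in the median library. For 75.5% of the genes that entered, a larger share of positive than of low libraries reached 10 CPM. Among the 23 low libraries with GAPDH in the range of the positive ones, the median gene reached 10 CPM in 56.5%; EOMES reached 10 CPM in 5 of them, T in 1, NODAL in 8 and WNT3 in 12. Against these 23 the log2 ratios were 1.60 for EOMES, 2.55 for T, 1.39 for NODAL and 3.73 for CER1, while WNT3 stood at 1.0 and was no longer called.

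By plate rows, F and G held 6 positive and 10 low libraries, and rows A to E and H held 12 and 28. Rows C and D held 0 positive and 12 low libraries. The ratio of EOMES was 4.23 in rows F and G and 1.84 in the other rows, that of WNT3 was 3.64 and 1.02, and that of CER1 was 4.59 and 4.01. That of FST was 1.12 and 2.07, and that of T was 1.19 and 3.27. The labels give no batch for the rows.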

How the data were processed

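Levels of RNA were taken from 96 tables, 1 per well. Each table the authors deposited holds raw counts for 58521 gene symbols and 4 summary lines; the lines took 88.8% of all reads and were left out. Per the submitters' processing notes, the tools were STAR 2.7.3a and FastQC, with hg38 and GRCh38.p2 named as builds; the annotation release is not given in the sources used here. Unstranded counts were taken, since the forward strand held 48.8 to 50.9% of stranded reads. Wells follow the titles, which differ from the table's name in the plate column for 16 wells. Kept libraries held 196136 to 1877837 gene reads, so that 3 reads stood for 15.3 down to 1.60 CPM. CPM, means, ratios, exact binomial intervals and Spearman's rho were computed with numpy 2.4.6, pandas 2.3.3 and scipy 1.17.1. The comparison was tested on simulated data. Scaling factors of edgeR 4.0.16 (TMM) and scran 1.30.0, thinning, other thresholds and parts of the plate were tried as alternatives. Sets, members and lists were chosen with earlier results of these data known. Genes named are the members of the streak, signalling, fate and pluripotency lists, called members of the others, the 15 highest and 15 lowest ratios, and the 10 highest rho; E4, D4 and SNAI1 were chosen after their values were seen, as were LEFTY2, KTN1 and members that did not enter. GENCODE 29 matched 36084 symbols.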

Additional observations from a re-analysis of the deposited data

How the results depend on the processing

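The counts of 477 higher and 513 lower genes stayed within 1.5 times under most alternatives, and moved under these. Higher genes numbered 2011 against the 10 low libraries with no MIXL1 read, 1603 within rows F and G (6 against 10 libraries), 199 with 10 CPM added, 998 with a mean of at least 1 CPM, 3050 by medians, 55 at 4-fold, and 850 without rows C and D. Lower genes numbered 1034 with the 11 libraries at 100 CPM of MIXL1 or more, 1401 within rows F and G, 141 with 10 CPM added, 1232 with a mean of at least 1 CPM, 205 by medians and 64 at 4-fold. Leaving out 1 library gave 454 to 526 higher and 483 to 714 lower genes, the last without G10. With GAPDH in the range of the positive libraries 23 low libraries remained, and 293 of the 477 higher genes were shared. Leaving out the highest library of each set takes 1 of 18 and 1 of 38 values, so 1 positive and 2 low were also left out, which gave 559 higher and 351 lower genes; this, the GAPDH range and the split by rows C and D were chosen after seeing the data. List medians moved for BMP (0.28 within rows F and G, 0.37 by medians), the epithelial-mesenchymal list (0.89 by medians), G1/S (1.19 within rows F and G, 0.78 by medians), glycolysis (0.95 within rows F and G) and DNA methylation (-0.20 on the forward strand, -0.23 in rows A to E and H). The sign turned for MYCN (1.0 within rows F and G, 0.07 by medians) and SLC25A3P1 (-1.71 within rows F and G); the cause was not tested. No paired analysis was possible because the wells carry 1 set of labels and no shared numbers, and a low library at 0 MIXL1 reads may hold transcripts that its depth could not show.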
